A study of Drosophila melanogaster with 16 samples.

Results

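Of 10459 genes measured in whole *Drosophila* larvae, 24 lost transcript when control larvae were fasted, kept most or all of their transcript when *ERK7* mutant larvae were fasted, and stood higher in fasted mutants than in fasted controls. They were chosen by exactly these values. With RPM as the deposited read level, scaled to a common library size, and group means taken on log2(RPM + 1), a gene was kept where fasted minus fed was at or below -1 in controls and at or above -0.3 in mutants, where fasted mutant minus fasted control was at or above 0.5, and where mean RPM reached 10 in at least 1 group. In the table, 869 genes met the limits on level and on the fall in controls, and of these 120 (13.8%) met the mutant limit, 181 (20.8%) met the limit in fasted larvae and 24 (2.76%) met both. Since these contrasts picked the genes, their values below are a description and not a test. Where limma calls among the 24 are counted, they stand beside the share over all genes for reference only, and nothing is read from them.

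The RNA came from whole male larvae of the 3rd instar in 4 groups of 4 libraries each. The paper and the sample labels give different larval ages at the transfer to fasting, so only the instar is stated here. The paper reports faster growth and earlier pupariation of the mutants, and the stage of the genotypes was not compared here. Fed controls and fed *ERK7* 1 mutants were kept on standard food, and fasted controls and fasted *ERK7* 1 mutants spent 6 h on PBS with 0.5% agarose. *ERK7* 1 is a short frameshifting deletion made by CRISPR/Cas9 and is represented by 1 line, while the control is a line of the same screen with an intact *ERK7* gene, and both had been crossed into the *w1118* background. All 4 simple contrasts are built from the same 4 groups, the fasted controls enter 2 of the 3 contrasts of the rule, and the difference between fed mutants and fed controls follows arithmetically from the other 3, so none of them is independent of the choice. The libraries held 16482553 to 20601418 counted reads and 1 read was worth 0.0472 to 0.0642 RPM. Whole larvae were sequenced, so fewer cells of a type and less RNA per cell cannot be told apart for any gene below. Differences are given on the log2(RPM + 1) scale, which understates the changes of genes near 1 RPM, with the SE of limma's fit over 4 libraries in each group.

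ERK7 is an atypical member of the MAP kinase family. In insects the fat body stores triacylglycerol in lipid droplets, makes secreted proteins through the endoplasmic reticulum (ER) and shares the handling of foreign and waste compounds with the gut and Malpighian tubules. Fasting lowers the expression of many genes that serve growth, secretion and storage and raises genes that release stored fuel. The 24 genes include proteins of the lipid droplet surface, an ER chaperone, oxidising and conjugating enzymes, membrane carriers and extracellular or immune proteins, next to genes not grouped by role here.

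The fasting response of controls, fasted minus fed on the log2 scale, ran from -3.06 for *vanin-like* to -1.01 for *CG43175* in the 24 genes (median -1.40, against 0.10 over all 10459 genes). The libraries of fed and fasted controls did not overlap for 23 of the 24, where 29.6% of all genes were lower without overlap, and *PGRP-SB1* was the exception. By limma at a Benjamini-Hochberg adjusted p under 0.05, 22 of the 24 were called lower, where 32.2% of all genes were. In mutants the same contrast ran from -0.30 for *pont* to 1.99 for *CG43175* (median 0.38, against 0.00). Between fasted mutants and fasted controls the members differed by 0.50 to 3.74 (median 1.30), and the libraries did not overlap for 17 of the 24, where 16.3% of all genes were higher in mutants without overlap. The 7 members with overlap were *CG43175*, *MFS12*, *PGRP-SB1*, *CG5999*, *Ugt36Bc*, *CG5853* and *CG31810*. By limma 22 of the 24 were called higher in fasted mutants and none lower, where 23.8% and 20.9% of all genes were. These counts and calls describe the selection, since the rule used both contrasts.

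**Figure D1:**
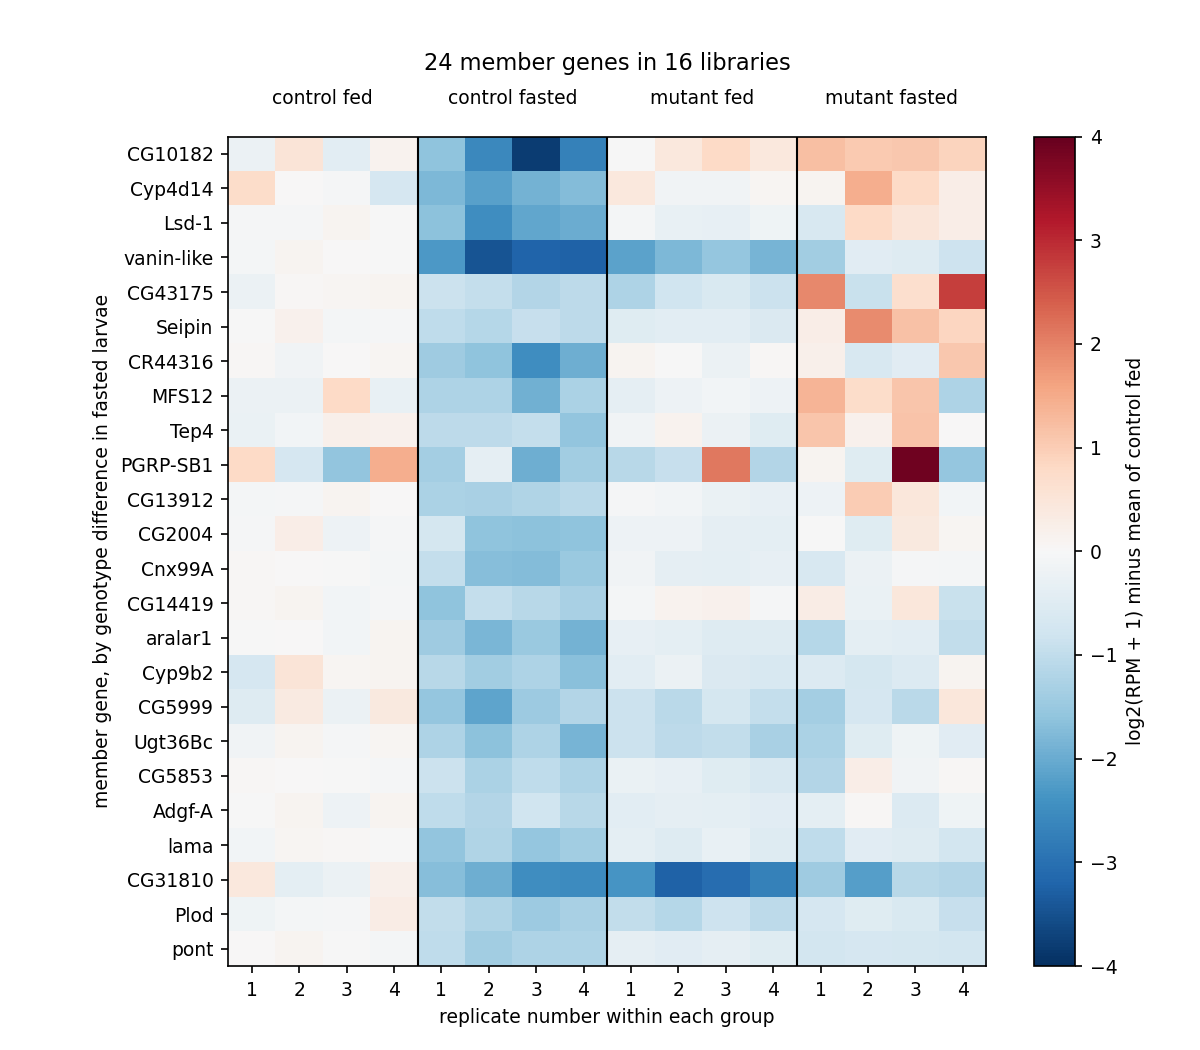
Level of the 24 member genes in each of the 16 libraries, as log2(RPM + 1) minus the mean of the fed controls (colour, rows by genotype difference in fasted larvae, columns by library). The fasted controls form a blue block, the fasted mutants range from blue to red, and *vanin-like* and *CG31810* are also blue in fed mutants.

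On food, mutants differed from controls by -2.84 to 0.41 in the 24 genes (median -0.41, against -0.02 over all genes), and the members are grouped here by the signed value of this difference alone. In 4 genes, *CG10182*, *Cyp4d14*, *CG14419* and *CR44316*, the mean of fed mutants was above or close to that of fed controls (-0.02 to 0.41, the highest being *CG10182*). In 14 genes fed mutants were between -0.48 and -0.18 of fed controls, and in the remaining 6, *CG31810*, *vanin-like*, *Ugt36Bc*, *Plod*, *CG5999* and *CG43175*, they were between -2.84 and -0.88. The libraries of fed mutants lay entirely under those of fed controls in 15 of the 24, where 25.9% of all genes did so, and 9 of the 24 passed limma's test there, where 26.0% of all genes were called lower. Calls and sizes did not coincide, since *CG43175* of the 6 was not among the 9, while *aralar1*, *Adgf-A*, *lama* and *pont* of the 14 were. As this difference follows from the contrasts of the rule, these counts are a description too.

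**Figure D2:**
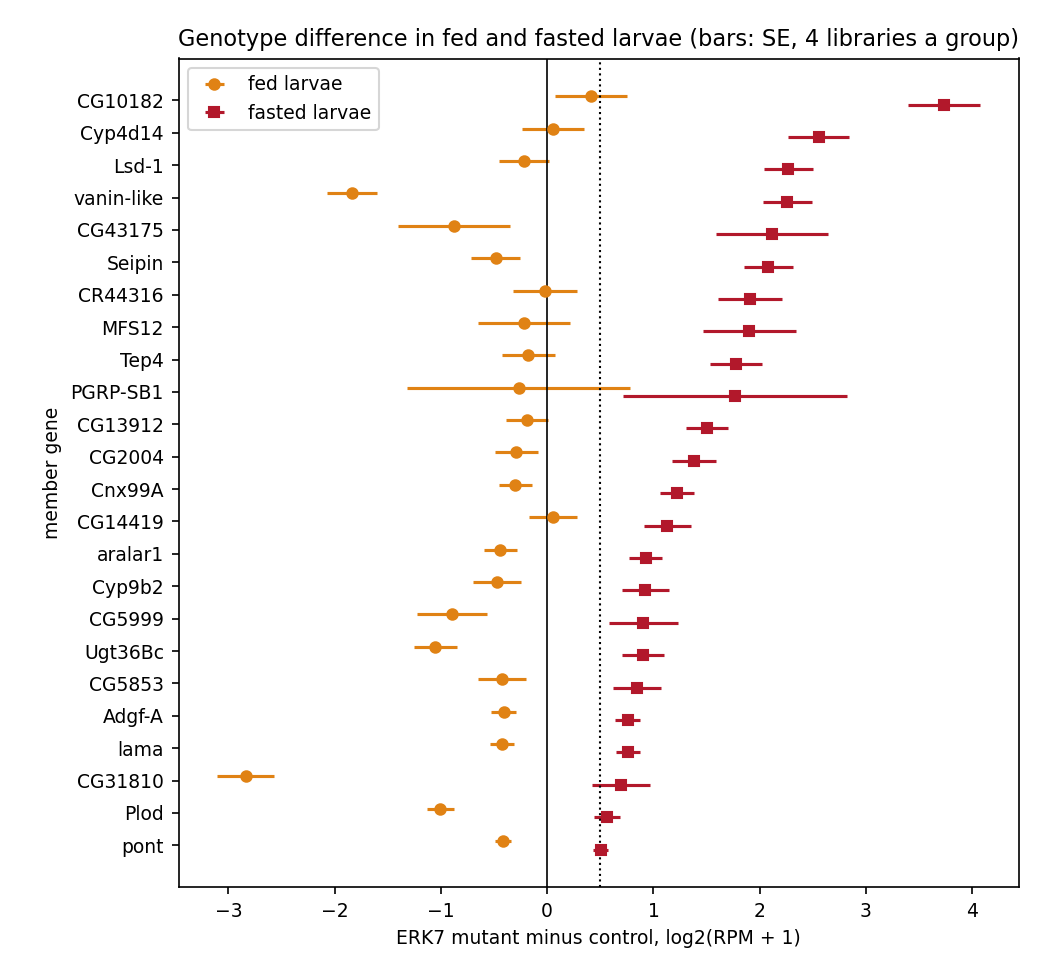
Difference between *ERK7* mutant and control larvae for each member (log2(RPM + 1), points, with SE as bars, 4 libraries a group) in fed larvae (orange circles) and in fasted larvae (red squares). All 24 lie at or above 0.50 in fasted larvae, which the rule requires (dotted line), whereas in fed larvae they spread from -2.84 for *CG31810* to 0.41 for *CG10182*.

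Above its limit of -0.3, the mutant fasting response is described here by its calls and overlaps, from which nothing is read since the rule used it. Within mutants, 6 genes (*vanin-like*, *CG43175*, *Seipin*, *Tep4*, *CG31810* and *Plod*) passed the limma threshold upwards, where 23.7% of all genes were called higher, and *pont* passed it downwards, where 25.0% were called lower. The libraries of fed and fasted mutants were separate in 5 genes, with fasted mutants higher in *CG10182*, *vanin-like*, *Seipin* and *CG31810*, where 22.7% of all genes were higher without overlap, and lower in *pont*, where 23.1% were lower without overlap. Measured against fed controls, the mean of fasted mutants was higher in 11 of the 24 genes. All 4 fasted mutant libraries lay above all fed control libraries in *CG10182* and *Seipin*, and below them in *vanin-like*, *aralar1*, *Ugt36Bc*, *lama*, *CG31810*, *Plod* and *pont*. No share over all genes was taken for this comparison, so nothing is read from these counts either.

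**Figure D3:**
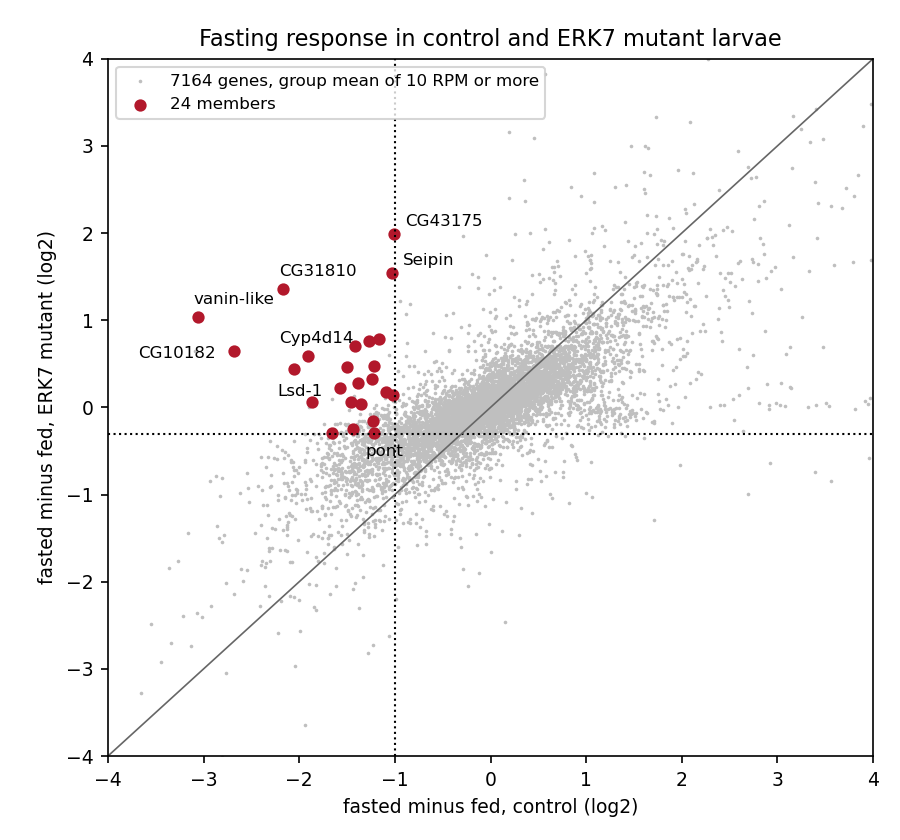
Fasting response (fasted minus fed, log2) of mutants against that of controls for 7164 genes with a group mean of 10 RPM or more (grey, 50 of them outside the axes) and for the 24 members (red), with the limits of the rule at -1 and -0.3 as dotted lines and equal responses as the diagonal. The members lie above the diagonal, from *pont* at the lower limit to *CG43175* and *Seipin* at 1.99 and 1.54.

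Triacylglycerol storage was represented by *Lsd-1* and *Seipin*. *Lsd-1* (FBgn0039114, chromosome 3R, 23763857 to 23766662, plus strand of the release 6 assembly) encodes a perilipin that sits on the droplet surface and controls the access of lipases. *Lsd-1* was read at 254, 255, 288 and 264 RPM in fed controls, 83.6, 46.6, 62.6 and 65.5 RPM in fasted controls, 250.1, 217, 211 and 234 RPM in fed mutants and 169.9, 457, 368 and 319 RPM in fasted mutants. Fasted controls formed a low group of their own, and fasted mutants lay on both sides of the fed levels, with 1 library under and 3 over all 8 fed libraries. The mean of the controls was 4.11-fold higher on food than fasted (-2.05 ± 0.23), and fasted mutants exceeded fasted controls 5.08-fold (2.27 ± 0.23).

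*Seipin* (FBgn0040336, chromosome X, 2619799 to 2622140, plus strand), whose product joins the ER to growing lipid droplets, went further. *Seipin* was read at 64.6, 73.5, 61.4 and 62.5 RPM in fed controls, 31.9, 29.4, 34.3 and 30.9 RPM in fasted controls, 45.9, 48.1, 48.4 and 43.3 RPM in fed mutants and 78.9, 246, 149.5 and 120.0 RPM in fasted mutants. The 4 groups did not overlap, and their order was fasted controls, fed mutants, fed controls and fasted mutants. Fasting left the control mean at 0.482 of its fed level (-1.03 ± 0.23) and the mutant mean was 3.20-fold higher fasted than fed (1.54 ± 0.23).

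The other 14 measured genes of triacylglycerol synthesis and lipid droplets moved in both directions. In controls 6 of them rose and 6 fell with fasting, in mutants 5 rose and 5 fell, and between fasted mutants and fasted controls 6 were higher and 2 lower (limma, Benjamini-Hochberg adjusted p under 0.05). That is 42.9% and 42.9% of the 14 in controls, against 37.5% and 32.2% of all genes, 35.7% and 35.7% in mutants, against 23.7% and 25.0%, and 42.9% and 14.3% between fasted genotypes, against 23.8% and 20.9%. The median of all 16, *Lsd-1* and *Seipin* included, was -0.32 in fasted controls, 0.01 in fasted mutants and 0.24 between fasted genotypes, against 0.10, 0.00 and 0.00 over all genes. The rule chose these 2 by the same contrasts, so the medians do not describe the other 14. *CG4753* (Agpat4) and *CG4729* (Agpat3), acyltransferases of an early step, fell in both genotypes, with -1.48 and -1.03 for the former and -1.61 and -0.77 for the latter, while *mino*, of the first acylation step, rose in both, by 1.14 in controls and 0.79 in mutants. Of these, *CG4729* alone was higher in fasted mutants than in fasted controls (0.67, limma, adjusted p = 0.00113). *Lsd-2*, the other perilipin gene and chosen after its values were seen, rose in both genotypes, by 0.71 in controls and 1.10 in mutants. Limma called *Lsd-2* higher in fasted mutants than in fasted controls as well (0.54).

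**Figure D4:**
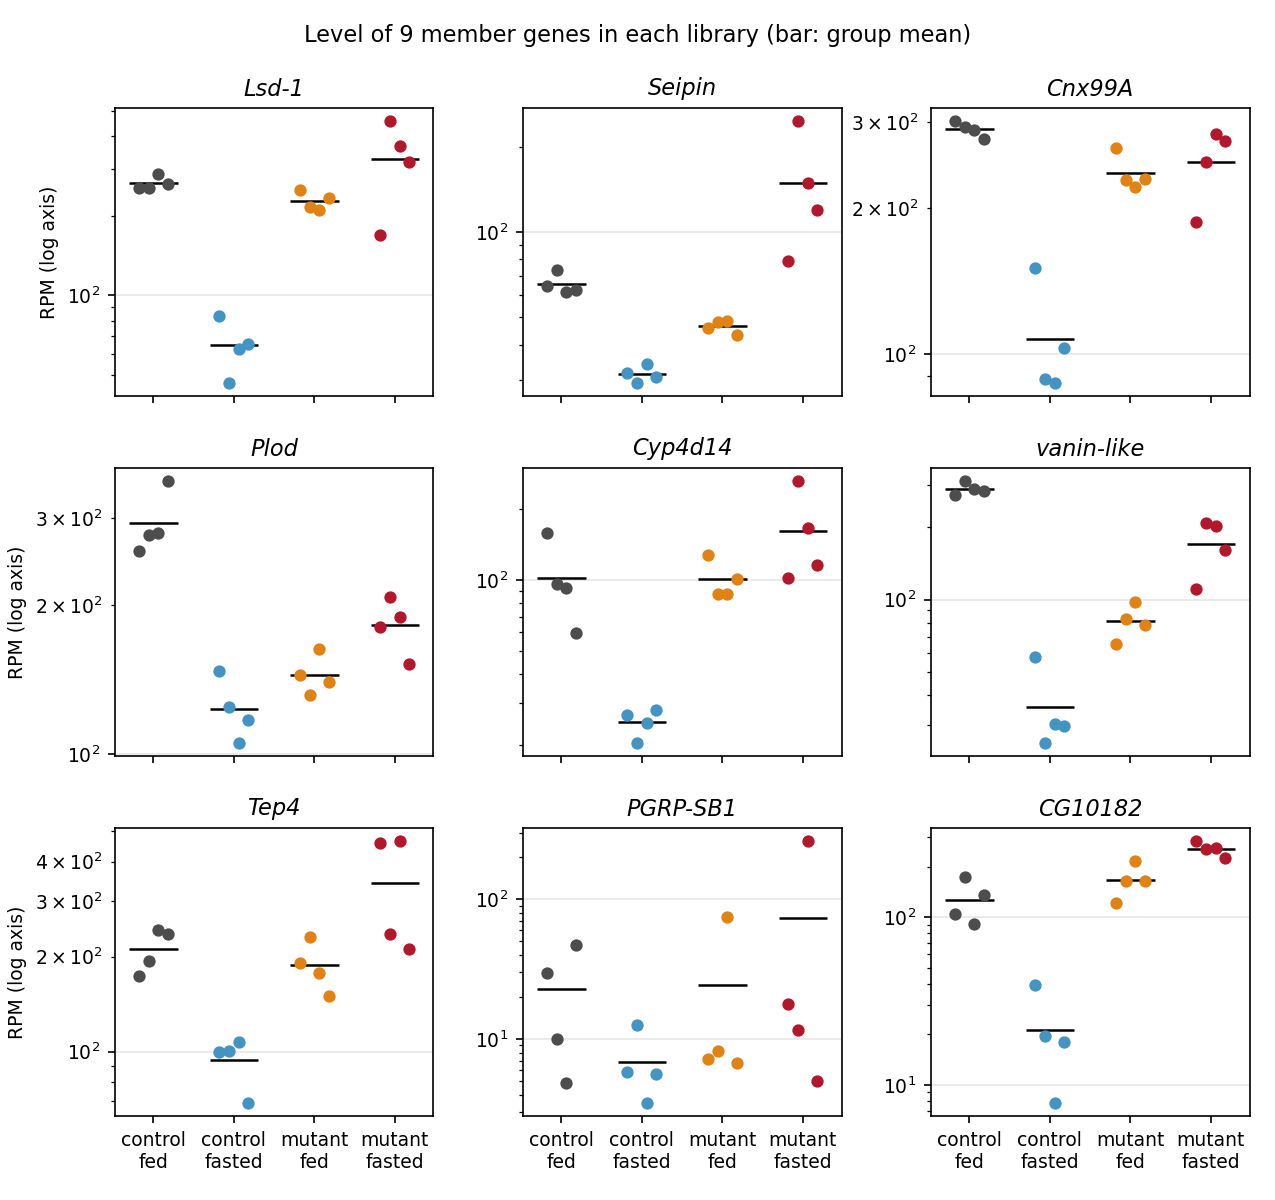
RPM of 9 member genes in each library (points, log axis) with the group mean (bar), 4 libraries in each of 4 groups. In *Seipin* the 4 groups are apart, in *Plod* and *vanin-like* the fed mutants are already below the fed controls, and in *PGRP-SB1* a single library of each mutant group, at 74.9 and 261 RPM, carries the mean.

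*Cnx99A* (FBgn0015622, chromosome 3R, 29315254 to 29319644, minus strand) encodes calnexin, the membrane-bound ER lectin that holds new glycoproteins until they fold. *Cnx99A* was read at 302, 293, 289.6 and 278 RPM in fed controls, 150.1, 89.0, 87.2 and 103 RPM in fasted controls, 266, 229, 221 and 229 RPM in fed mutants and 187, 248, 284 and 275 RPM in fasted mutants. All fasted controls lay under all other libraries, and fasted mutants overlapped with both fed groups. Its fasting response was -1.46 ± 0.16 in controls and 0.06 ± 0.16 in mutants.

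Among 25 measured genes of ER translocation and folding, *Cnx99A* was the only member. The other 24 all fell in fasted controls by limma, from -2.62 to -0.38 (median -1.54), and 23 of them also fell in fasted mutants, with *Ero1L* at -0.16 not passing the test. Mutant values of these 24 ran from -1.83 to -0.16 (median -0.85), and 16 of the 24 were higher in fasted mutants than in fasted controls while none was lower. The interaction of genotype and fasting, the mutant response minus the control response, was positive and past the threshold in 16 of the 24 and negative in none. Over all genes 32.2% fell in fasted controls, 25.0% fell in fasted mutants, 23.8% were higher in fasted mutants than in fasted controls, and the interaction was positive in 18.2% and negative in 13.7%. *Pdi*, the disulfide isomerase, had a response of -2.12 in controls and -1.46 in mutants. *Hsc70-3*, the ER Hsp70 known as BiP, had -2.62 and -0.98, and *Sec61alpha*, the channel of the translocon, had -2.29 and -1.61. *Gp93*, an ER chaperone of the Hsp90 family chosen after its values were seen, had -2.33 and -0.57. The corresponding mutant value of *Cnx99A*, which the rule required to be at or above -0.3, was 0.06.

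*Plod* (FBgn0036147, chromosome 3L, 11198166 to 11206016, minus strand) makes the lysyl hydroxylase that modifies collagen in the ER. *Plod* was read at 258, 277, 279.9 and 356 RPM in fed controls, 148, 125, 106 and 117 RPM in fasted controls, 145, 132, 163 and 139.8 RPM in fed mutants and 181, 208, 189.5 and 153 RPM in fasted mutants. Fed controls stood apart from the 3 other groups, and fed mutants overlapped with fasted controls. In mutants fasting moved it by 0.33 ± 0.12 from this low fed level, and fasted mutants remained under every fed control.

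The enzymes of detoxification comprised the P450 genes *Cyp4d14* and *Cyp9b2* and the UDP-glycosyltransferase genes *Ugt36Bc* (now Ugt37D1) and *CG5999* (now Ugt37A3). *Cyp4d14* was read at 159, 96.0, 92.1 and 59.8 RPM in fed controls, 26.8, 20.4, 24.8 and 28.1 RPM in fasted controls, 128, 87.0, 87.5 and 101 RPM in fed mutants and 102, 263, 167 and 115 RPM in fasted mutants. The fasted controls lay apart from all 12 other libraries, which overlapped among themselves. For *Cyp4d14* (FBgn0023541, chromosome X, 2173415 to 2175315, minus strand) fasted mutants exceeded fasted controls 6.47-fold (2.55 ± 0.29), the next largest ratio on the log2 scale after *CG10182*. Of its 1694 exonic bases 1647 are shared with genes on the opposite strand, and the counts were made by strand.

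*Cyp9b2* was read at 321, 733, 542 and 549.8 RPM in fed controls, 240.3, 194, 217 and 161 RPM in fasted controls, 387, 435, 343 and 328 RPM in fed mutants and 349, 314, 349 and 558 RPM in fasted mutants. *Cyp9b2* (FBgn0015039, chromosome 2R, 7130277 to 7132139, minus strand) had the highest level per kilobase of exon of the 24 in fed controls (322 RPM per kb), and again only the fasted controls were separate from all other groups. Its mean difference between fasted genotypes was 0.92 ± 0.23. The fasted mutant library at 558 RPM was far from the other 3 at 314 to 349 RPM, and the difference without overlap does not rest on it.

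*Ugt36Bc* was read at 164, 194, 175 and 189.9 RPM in fed controls, 76.2, 56.6, 76.0 and 48.7 RPM in fasted controls, 99.0, 86.5, 90.3 and 72.0 RPM in fed mutants and 74.2, 129.7, 159.7 and 131 RPM in fasted mutants. *Ugt36Bc* (FBgn0040260, chromosome 2L, 16799025 to 16801584, plus strand) was lower in fed mutants than in every fed control (-1.05 ± 0.20), and 1 fasted mutant library, at 74.2 RPM, fell inside the range of the fasted controls. *CG5999* was read at 58.9, 108, 70.7 and 111 RPM in fed controls, 27.8, 18.6, 30.3 and 36.7 RPM in fasted controls, 46.0, 39.2, 51.6 and 43.4 RPM in fed mutants and 31.9, 52.1, 39.3 and 115 RPM in fasted mutants. For *CG5999* the fasted mutants ran from inside the fasted controls, at 31.9 RPM, to above every fed control, at 115 RPM, so that its difference of 0.91 ± 0.33 between fasted genotypes is carried unevenly by the 4 libraries.

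Other genes of these families moved in both directions. Of 70 other P450 genes measured, 37 rose and 13 fell in fasted controls, 33 rose and 15 fell in fasted mutants, and 9 were higher and 15 lower in fasted mutants than in fasted controls. These are 52.9% and 18.6% in controls, against 37.5% and 32.2% of all genes, 47.1% and 21.4% in mutants, against 23.7% and 25.0%, and 12.9% and 21.4% between fasted genotypes, against 23.8% and 20.9%. The 3 of them with the highest mean RPM were *Cyp12a4*, which rose by 2.43 in controls and 2.04 in mutants, *Cyp6d5*, with -0.69 and -0.49, and *Cyp4g1*, with -0.02 and -0.39. Among 41 other glutathione and glucuronosyl transferase genes by the symbols of the table, 13 rose and 21 fell in fasted controls, 11 rose and 18 fell in fasted mutants, and 11 were higher and 5 lower in fasted mutants than in fasted controls. Their shares were 31.7% and 51.2% in controls, 26.8% and 43.9% in mutants, and 26.8% and 12.2% between fasted genotypes, beside the same shares of all genes. *GstE3* fell in both genotypes (-2.92 and -2.28), and *GstT4* rose in both (3.80 and 2.42). Of 27 other UDP-glycosyltransferase genes by current symbol, a list chosen after values were seen, 9 rose and 12 fell in fasted controls, where 37.5% and 32.2% of all genes did. Between fasted genotypes 3 of the 27 were higher and 5 lower in mutants, where 23.8% and 20.9% of all genes were.

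Carriers and small-molecule enzymes were led by *vanin-like* (FBgn0040069, chromosome X, 6200188 to 6202559, minus strand), whose mammalian relatives release pantothenic acid from pantetheine. *vanin-like* was read at 272, 312, 289.6 and 284 RPM in fed controls, 57.7, 25.2, 30.2 and 29.6 RPM in fasted controls, 65.4, 82.7, 97.5 and 78.6 RPM in fed mutants and 110.2, 209, 203 and 162 RPM in fasted mutants. The 4 groups were separate, in the order of fasted controls, fed mutants, fasted mutants and fed controls. Control larvae had the largest fasting fall of the 24 here, 8.11-fold (-3.06 ± 0.23), while fed mutants were low and fasted mutants lay 2.11-fold above them (1.04 ± 0.23). The mean of fasted mutants reached 59.1% of that of fed controls.

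*aralar1* (FBgn0028646, chromosome 3R, 30445635 to 30455867, minus strand) encodes the mitochondrial carrier that exchanges aspartate for glutamate. *aralar1* was read at 279, 288, 259.5 and 308 RPM in fed controls, 105, 78.6, 99.9 and 75.2 RPM in fasted controls, 225, 215, 196 and 198 RPM in fed mutants and 129, 215, 212 and 142 RPM in fasted mutants. Fasted mutants lay between the fasted controls and the fed controls without meeting either group, and overlapped with the fed mutants. Its mutant response of -0.29 ± 0.16 lay just inside the limit of the rule.

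*CG5853* was read at 405, 401, 387 and 377 RPM in fed controls, 217, 162, 195 and 165 RPM in fasted controls, 325, 315, 282 and 251 RPM in fed mutants and 173, 474, 359.5 and 402 RPM in fasted mutants. *CG5853*, an ABC transporter of the G family, had 3 fasted mutant libraries between 359.5 and 474 RPM, around the fed control level, and 1, at 173 RPM, within the range of the fasted controls. Of its exonic bases 1853 are shared with *CG4619* on the opposite strand. *MFS12* was read at 9.25, 9.26, 20.0 and 8.92 RPM in fed controls, 4.23, 4.16, 2.19 and 4.07 RPM in fasted controls, 8.45, 9.60, 10.3 and 9.57 RPM in fed mutants and 30.3, 19.1, 25.3 and 4.16 RPM in fasted mutants. In *MFS12*, a transporter of the major facilitator superfamily, 3 fasted mutant libraries exceeded those of all other groups, save that 19.1 RPM lay under 1 fed control at 20.0 RPM. The fourth fasted mutant library, at 4.16 RPM, lay within the fasted controls.

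Secreted and immune proteins were *Tep4*, *PGRP-SB1*, *Adgf-A* and *lama*. *Tep4* was read at 173, 194, 243 and 236 RPM in fed controls, 99.9, 100.1, 108 and 68.8 RPM in fasted controls, 191, 231, 177 and 150.3 RPM in fed mutants and 458, 235, 464 and 211 RPM in fasted mutants. *Tep4* (FBgn0041180, chromosome 2L, 19548507 to 19556451, plus strand), a thioester protein related to complement factors, was lowest in fasted controls without overlap, and fasted mutants formed a pair at 458 and 464 RPM and a pair at 211 and 235 RPM, the latter within the fed range. Its fasting response was -1.17 ± 0.25 in controls and 0.79 ± 0.25 in mutants. Of the 3 other Tep genes measured 2 rose and none fell with fasting in each genotype. Over all genes 37.5% rose and 32.2% fell in controls, and 23.7% rose and 25.0% fell in mutants. Between fasted genotypes 2 of the 3 were higher and 1 lower in mutants, where 23.8% and 20.9% of all genes were.

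*PGRP-SB1* was read at 29.5, 9.98, 4.82 and 47.3 RPM in fed controls, 5.76, 12.7, 3.49 and 5.65 RPM in fasted controls, 7.19, 8.23, 74.9 and 6.76 RPM in fed mutants and 17.8, 11.5, 261 and 4.98 RPM in fasted mutants. *PGRP-SB1*, a peptidoglycan-recognition amidase, is a member through its log2 means but its libraries overlapped in all 4 simple contrasts. A library of fasted mutants held 261 RPM against 4.98 to 17.8 RPM in the other 3, a library of fed mutants held 74.9 RPM against 6.76 to 8.23 RPM, and the SE of each simple contrast was 1.05. Among 35 other genes of peptidoglycan recognition, serpins and immune peptides, 20 rose and 2 fell in fasted controls, 14 rose and 5 fell in fasted mutants, and 11 were higher and 14 lower in fasted mutants than in fasted controls. Their shares were 57.1% and 5.71% in controls, against 37.5% and 32.2% of all genes, 40.0% and 14.3% in mutants, against 23.7% and 25.0%, and 31.4% and 40.0% between fasted genotypes, against 23.8% and 20.9%. *Spn43Ab*, a serpin and 1 of the 3 with the highest mean RPM, rose by 1.00 in controls and 0.53 in mutants.

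*Adgf-A* was read at 158, 174, 138 and 171 RPM in fed controls, 79.2, 70.3, 91.8 and 72.8 RPM in fasted controls, 119, 124, 121 and 117 RPM in fed mutants and 121, 164, 109.9 and 143 RPM in fasted mutants. *Adgf-A*, a secreted adenosine deaminase, was lowest in fasted controls without overlap, with a response of -1.02 ± 0.12 in controls and 0.15 ± 0.12 in mutants. *lama* was read at 128, 145, 143 and 135 RPM in fed controls, 45.5, 58.8, 46.1 and 51.4 RPM in fasted controls, 106, 96.9, 111 and 95.3 RPM in fed mutants and 67.5, 100.2, 95.1 and 82.9 RPM in fasted mutants. In *lama*, which encodes a phospholipase B-like protein, fasted mutants lay between fasted controls and fed controls and did not meet either. Of the 4046 exonic bases of *lama*, 3546 are shared with *CG46456* on the same strand in the later annotation, so reads of these genes cannot be told apart.

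*pont* (FBgn0040078, chromosome 3R, 10262123 to 10263899, plus strand) encodes Pontin, an ATPase of chromatin-remodelling complexes, and was the member closest to the limits. *pont* was read at 84.2, 89.7, 83.5 and 78.7 RPM in fed controls, 41.4, 31.5, 35.0 and 35.0 RPM in fasted controls, 65.4, 61.7, 64.6 and 59.1 RPM in fed mutants and 50.5, 52.1, 50.8 and 50.1 RPM in fasted mutants. All 4 groups were separate, in the order of fasted controls, fasted mutants, fed mutants and fed controls. The fasted mutants varied least of all 24 members, by 1.04-fold, and they differed by 0.50 ± 0.072 from fasted controls and by -0.30 ± 0.072 from fed mutants, beside a response of -1.22 ± 0.072 in controls. Fasted mutants thus lay under fed mutants without overlap, as they did in no other member.

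The remaining genes, not grouped by role here, included the one with the largest genotype difference in fasted larvae on the log2 scale, *CG10182*. By the ratio of means *CG43175* was slightly above it, at 12.5-fold. *CG10182* was read at 104, 174, 91.4 and 135 RPM in fed controls, 39.1, 19.5, 7.80 and 18.0 RPM in fasted controls, 122, 164, 216 and 165 RPM in fed mutants and 284, 256, 259 and 227 RPM in fasted mutants. *CG10182* (FBgn0039091, chromosome 3R, 23587120 to 23589819, minus strand) was lowest in the 4 fasted controls and highest in the 4 fasted mutants, with no overlap to any other group, and the fed groups overlapped with each other. Fasted mutants exceeded fasted controls 12.1-fold (3.74 ± 0.34). The fasted mutants spanned only 1.25-fold, whereas fasted controls spanned 7.80 to 39.1 RPM.

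*CR44316* was read at 25.9, 22.9, 25.5 and 26.8 RPM in fed controls, 8.78, 7.59, 3.66 and 5.81 RPM in fasted controls, 27.2, 25.2, 21.4 and 25.8 RPM in fed mutants and 29.1, 15.8, 18.2 and 54.3 RPM in fasted mutants. *CR44316* (FBgn0265375, chromosome 2R, 12320594 to 12320912, minus strand), a noncoding RNA of 262 exonic bases, had close mean levels in both fed groups (-0.02 ± 0.30) and fasted mutants from below to above them, all over the fasted controls. *CG13912* was read at 28.0, 28.3, 31.9 and 30.2 RPM in fed controls, 11.8, 11.3, 12.2 and 13.4 RPM in fasted controls, 28.5, 27.2, 24.4 and 23.4 RPM in fed mutants and 25.4, 61.0, 40.8 and 27.2 RPM in fasted mutants. In *CG13912* all fasted mutants also lay over the fasted controls, with 2 of them above all fed libraries and the others, at 25.4 and 27.2 RPM, within the fed range. *CG14419* was read at 217, 225, 196 and 201 RPM in fed controls, 68.7, 109, 96.7 and 85.5 RPM in fasted controls, 199.7, 232, 237 and 204 RPM in fed mutants and 258, 173, 288 and 113 RPM in fasted mutants. In *CG14419*, which consists of 1 exon, fasted mutants ran from just over the highest fasted control to above every fed library.

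*CG2004* was read at 31.4, 39.5, 28.4 and 31.8 RPM in fed controls, 19.7, 10.1, 9.75 and 10.0 RPM in fasted controls, 28.4, 28.2, 25.1 and 24.3 RPM in fed mutants and 32.1, 23.1, 43.0 and 34.4 RPM in fasted mutants. Fasted controls of *CG2004* were again a separate low group, and the fasted mutants reached from just below to above the fed range. *CG31810* was read at 54.2, 30.4, 33.5 and 45.6 RPM in fed controls, 11.5, 9.49, 6.32 and 6.11 RPM in fasted controls, 6.96, 3.33, 3.93 and 5.28 RPM in fed mutants and 14.3, 7.88, 17.9 and 17.1 RPM in fasted mutants. *CG31810* (FBgn0051810, chromosome 2L, 16849018 to 16852368, minus strand) had the lowest fed mutant level relative to controls, with fed controls 8.40-fold above fed mutants (-2.84 ± 0.27), and the means of fasted controls and fasted mutants, whose libraries overlapped, both lay between those of the fed groups. Its reads were 66 to 1002 per library.

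*CG43175* was read at 2.16, 2.90, 2.95 and 3.01 RPM in fed controls, 1.06, 0.949, 0.65 and 0.815 RPM in fasted controls, 0.575, 1.16, 1.45 and 1.04 RPM in fed mutants and 13.0, 0.997, 4.99 and 24.4 RPM in fasted mutants. *CG43175* had the lowest level per kilobase of exon of the 24 in fed controls (4.03 RPM per kb) and met the minimum of 10 RPM through fasted mutants alone, with 20 to 504 reads in these 4 libraries and 10 to 57 in the other 12. The fasted mutant library at 0.997 RPM lay among the fasted controls, and the response of 1.99 ± 0.53 rests on the other 3.

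The fasted mutant libraries differed among themselves more in the member genes than in the median gene. The median SD of log2(RPM + 1) over the 4 libraries was 0.13 in fed controls, 0.14 in fed mutants, 0.28 in fasted controls and 0.54 in fasted mutants, against 0.10, 0.10, 0.12 and 0.12 over 7164 genes with a group mean of 10 RPM or more. In 17 of the 24 the largest of the 4 SDs was that of the fasted mutants. Replicate 1 of the fasted mutants was the lowest of its group in 11 of the 24, which were *Lsd-1*, *Seipin*, *Cnx99A*, *Cyp4d14*, *Ugt36Bc*, *CG5999*, *vanin-like*, *aralar1*, *CG5853*, *lama* and *CG13912*, while it was the lowest for 25.0% of genes at that level. Replicate 1 of the fasted controls was the highest of its group in 15 of the 24, and for 28.1% of those genes. The rule chose the genes on values of these fasted libraries, so the spread and the counts are a description. What sets this spread was not tested.

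**Figure D5:**
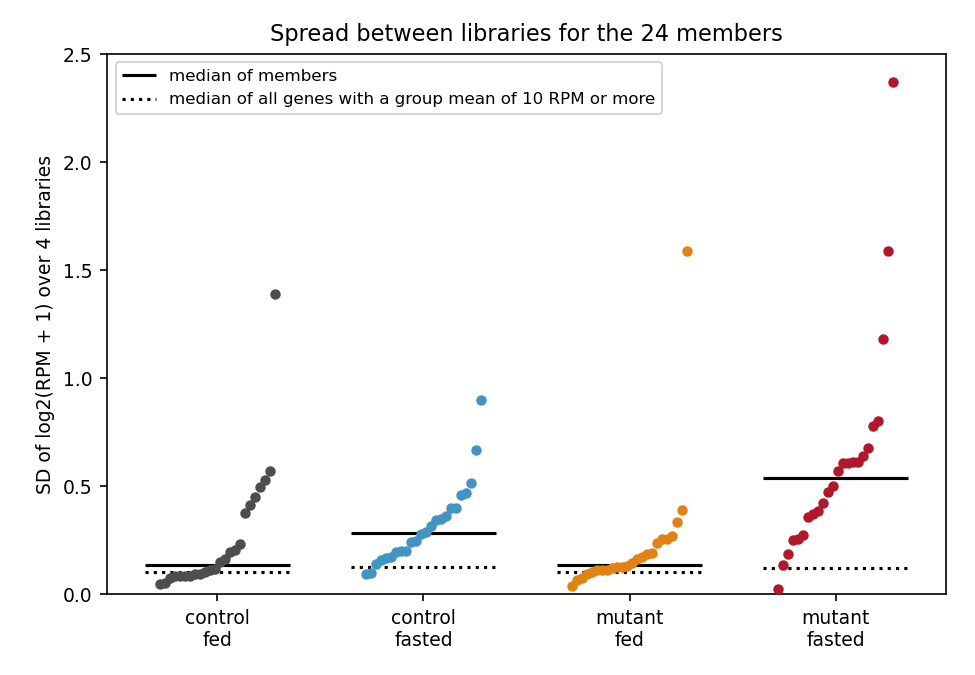
SD of log2(RPM + 1) over the 4 libraries of each group for the 24 members (points), with the members' median (solid line) and the median over 7164 genes (dotted line). The members' median is 0.54 in fasted mutants and 0.13 in fed controls, while that of all genes stays between 0.10 and 0.12.

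Removal of replicate 1 from every group left 38 genes within the limits, 22 of them among the 24, and removal of replicate 3 left 18, of which 16 were among the 24. Without fasted control replicate 1 alone the rule found 29 genes, and without fasted mutant replicate 1 alone it found 30. Over 26 alternative settings 9 genes stayed within the limits each time, namely *CG10182*, *Lsd-1*, *vanin-like*, *Cyp4d14*, *Cyp9b2*, *Ugt36Bc*, *CG5999*, *CG5853* and *Cnx99A*. The members that met them least often were *pont* with 15 and *CG43175* with 16 of the 26.

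Several genes stood close to the limits. For the fall in controls, *CG43175*, *Adgf-A* and *Seipin* were nearest inside, at -1.01, -1.02 and -1.03, and *bond*, *Cas* and *PMP34* nearest outside, at -0.99, -0.98 and -0.91. For the mutant response, *pont*, *aralar1* and *lama* were inside at -0.30, -0.29 and -0.25, and *CG3270*, *bgm* and *CG15385* outside at -0.31, -0.33 and -0.33. Between fasted genotypes, *pont*, *Plod* and *CG31810* were inside at 0.50, 0.56 and 0.69, and *CG5804*, *Hex-C* and *CG8771* outside at 0.49, 0.41 and 0.40. By level, *CG43175*, *MFS12* and *CR44316* were inside with highest group means of 10.8, 19.7 and 29.3 RPM, and *CG15254*, *snoRNA:Psi28S-291* and *CecA1* outside with 6.96, 4.32 and 3.12 RPM.

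Of 8 listed fat body markers 4 were measured, and their summed level was 26630 to 36240 RPM in fed controls, 64490 to 74690 in fed mutants, 10930 to 12420 in fasted controls and 22670 to 27540 in fasted mutants. The higher sums of mutants came mainly from *Lsp1gamma*, a storage protein gene, whose means were 14900 RPM in fed controls, 51300 in fed mutants, 627 in fasted controls and 11900 in fasted mutants. *Rfabg*, of the lipoprotein backbone, had means of 16800, 18100, 10500 and 13300 RPM in the same order, *Mtp* had 275, 236, 184 and 254 RPM, and *fat-spondin* had 107, 110, 170 and 156 RPM, so the 4 markers did not share 1 direction. *Fbp1*, *Fbp2*, *Lsp2* and *apoLTP* were not analysed here.

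Marker sums of some other tissues also differed between fasted controls and fasted mutants, while those of others overlapped. The sum of 6 of 8 midgut markers was 9932 to 13090 RPM in fasted controls and 6744 to 8950 in fasted mutants. That of 3 of 6 salivary gland markers was 697 to 967 and 570 to 693 RPM. For 6 of 6 markers of epidermis and cuticle the sum was 778 to 2721 and 320 to 454 RPM. All these sums were lower in mutants without overlap, though the salivary gland ranges nearly met. By limma 4 of the 6 midgut markers and 1 of the 3 salivary gland markers were lower in fasted mutants and none was higher. The sum of epidermis and cuticle came mainly from *TwdlN*, with means of 1430 and 25.1 RPM, and *Cpr64Ad*, with 320 and 9.4 RPM. *Lcp2* went the other way, with 2.88 and 15.7 RPM. By limma 2 of these 6 were lower in fasted mutants and 1 higher, where 20.9% and 23.8% of all genes were. The sum of 4 of 5 prothoracic gland markers was higher in mutants, with 10.2 to 11.2 RPM in fasted controls and 13.2 to 15.7 RPM in fasted mutants. Limma called 1 of these 4 higher. Summed hemocyte markers, of which 6 of 7 were measured, overlapped, at 771 to 867 and 781 to 1088 RPM. Muscle sums overlapped too, at 46570 to 56870 and 45390 to 54750 RPM, as did testis sums, at 21.4 to 57.9 and 53.6 to 70.5 RPM. In testis 5 of 8 markers were called higher in fasted mutants by limma. Sums of Malpighian tubule, central nervous system and imaginal disc markers also overlapped. The part of these tissues in the members' values was not tested.

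*sug*, the gene of a Gli-similar transcription factor that the rule did not select, fell in both genotypes. It was read at 18.0 to 22.2 RPM in fed controls, 2.31 to 3.28 RPM in fasted controls, 17.8 to 24.5 RPM in fed mutants and 5.61, 12.3, 21.3 and 13.9 RPM in fasted mutants. Its fall was -2.54 ± 0.25 (SE) in controls and -0.76 ± 0.25 in mutants (limma, adjusted p = 0.0229), the latter changing to -0.70 without replicate 2 (limma, adjusted p = 0.129) and to -0.83 without replicate 4 (limma, adjusted p = 0.0729). The interaction was 1.79 ± 0.36 (limma, adjusted p = 0.00186). *nclb*, the fly relative of the ribosome biogenesis factor PWP1, differed in another way, with a mean of 114 RPM in fed controls, 41.9 in fed mutants, 39.5 in fasted controls and 36.6 in fasted mutants. Its interaction was 1.31 ± 0.16 (limma, adjusted p = 4.06e-05), and the fasted genotypes differed by -0.12 (adjusted p = 0.406). *Erk7* itself had means of 2.19 RPM in fed controls, 8.23 in fed mutants, 5.69 in fasted controls and 7.16 in fasted mutants. Fed mutants were above fed controls by 1.59 (limma, adjusted p = 0.00235), and fasted controls above fed controls by 0.96 (limma, adjusted p = 0.0315). Fasted mutants differed by -0.17 from fed mutants and by 0.46 from fasted controls, neither past the threshold. A gene count does not read a small deletion, so *Erk7* is no check of the labels.

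The 24 genes are spread over the genome, with 4 on 2L, 3 on 2R, 5 on 3L, 7 on 3R and 5 on X. No members are adjacent, and the nearest, *Ugt36Bc* and *CG31810* on 2L, are 47434 bp and 10 genes apart.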

How the data were processed

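The 16 RNA libraries of whole male larvae comprise 4 per combination of genotype and diet. Per the paper's methods and the labels, they trimmed reads with Trimmomatic, mapped them with TopHat2 2.1.0, counted them by strand on exons with HTSeq 2.7.6 and removed genes with very low counts. The deposited table holds, for 10459 genes, signal values on a linear scale made by the authors from counts and scaled library sizes, called RPM here. All (100%) were whole multiples of 1 read within a tolerance of 1e-04, so reads could be recovered. Its other columns, with the authors' own mean log2 levels, fold changes, test statistics and p-values, were not used.

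The rule was applied to group means of log2(RPM + 1). limma 3.58.1 in R 4.3.3 was fitted to all libraries with 1 mean for each of the 4 groups, and p-values were adjusted after Benjamini-Hochberg over the whole table, with a threshold of 0.05. The fit was also run on simulated counts with the same dispersion for all genes and groups. The members' spread differed between groups, so that run does not cover their calls. Nothing states that libraries came from separate cultures, so a p measures the spread between these libraries, which may be technical. Every member is named. The naming rule added *sug*, *nclb* and *Erk7*, the 3 genes nearest outside each limit and, among other genes of a list with members, up to 3 by highest mean level. Other names were chosen after values were seen. The members and the 38 gene lists were chosen with earlier results of these data known, and 33 lists held no member. Positions come from a later annotation of release 6 (10305 genes found).

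Alternatives were a pseudocount of 0.1, quantile normalization, median centring, other level minimums, group medians, edgeR 4.0.16 and DESeq2 1.42.0 on recovered reads, a minimum log2 fold change of 0.5, the replicate number as a block, each replicate number left out and, added after seeing the data, each single library left out. No sequences were used.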

Additional observations from a re-analysis of the deposited data

Results flagged for a closer look

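In 9 of 108 groups of 4 libraries, over the 24 members and 3 other genes, 1 library was far from the other 3, where chance gives about 1 in 20. *PGRP-SB1* held 74.9 RPM in fed mutant replicate 3 against 6.76 to 8.23 RPM in the others, and 261 RPM in fasted mutant replicate 3 against 4.98 to 17.8 RPM. *MFS12* held 20.0 RPM in fed control replicate 3 against 8.92 to 9.26 RPM, and 2.19 RPM in fasted control replicate 3 against 4.07 to 4.23 RPM. Fasted control replicate 1 stood high in *vanin-like*, with 57.7 RPM against 25.2 to 30.2 RPM, and in *CG2004*, with 19.7 RPM against 9.75 to 10.1 RPM. *Cyp9b2* held 558 RPM in fasted mutant replicate 4 against 314 to 349 RPM. *CG43175* held 2.16 RPM in fed control replicate 1 against 2.90 to 3.01 RPM. *Erk7* held 5.14 RPM in fasted mutant replicate 3 against 7.59 to 8.03 RPM.

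The fasting response differed between genotypes in *sug*, with an interaction of 1.79 ± 0.36 (SE, limma, adjusted p = 0.00186), and in *nclb*, with 1.31 ± 0.16 (SE, limma, adjusted p = 4.06e-05).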

How the results depend on the processing

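The number of genes within the limits, 24, ranged from 18 to 38 with 1 replicate number left out, the latter without replicate 1. Among members, those higher in fasted than fed mutants numbered 6 by limma, 11 by DESeq2 and 5 to 9 with a replicate left out, and those lower numbered 1, 0 with the fold change minimum of 0.5 and 1 to 2 with a replicate left out. Members lower in fed mutants than in fed controls numbered 9, 5 with that minimum and 6 to 12 with a replicate left out. Over the 184 other genes of lists with a member, 36 were lower in fasted mutants than in fasted controls and 37 had a negative interaction, and with a replicate left out these counts were 23 to 35 and 23 to 27. The 24 pairs of libraries with the same replicate number in different groups had residual correlations of -0.324 to 0.291. Of 16 libraries, 2 correlated best with their own number. With 4 libraries a group, these correlations cannot exclude a batch shared by number, and the main fit left the libraries unpaired. With the replicate block, 22 members were lower in fasted controls, 23 higher in fasted mutants than in fasted controls, and 5 higher in fasted than fed mutants. Of 1056 log2 values of members under the settings run, 17 in 10 genes moved by more than 1 SD of the compared group with the larger spread, and none of the members' called values changed sign. Of the 17, 13 were differences between fed genotypes, such as *Lsd-1* at -0.05, *aralar1* at -0.27 and *pont* at -0.29 after quantile normalization, and 4 were the control fall of *CG43175*, at -1.28 to -1.69. In *CG43175*, *MFS12* and *PGRP-SB1* the spread of the fasted mutants limits what 4 libraries can show.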
